A study of Homo sapiens with 6 samples.

Results

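Metallothioneins, their transcription factor MTF1 and both families of zinc transporters were followed in RD cells after knockdown of TAK1. RD is an established cell line from an embryonal rhabdomyosarcoma (ERMS), a muscle-like tumor, and TAK1, encoded by MAP3K7, is a kinase that relays cytokine and TGFβ signals. Messenger RNA, enriched by poly(A), was read in 3 cultures that carried lentivirus for a scrambled shRNA (control) and 3 cultures transduced with lentivirus for a TAK1 shRNA (knockdown). Both groups are RD cells that went through lentiviral transduction, and they differ in the shRNA. Only 1 TAK1 shRNA was sequenced, in 1 line, so that an effect of losing TAK1 and an effect of that construct cannot be told apart. The sources used here do not say whether the sequenced cultures were transduced separately, and p-values measure the spread between these samples only. The genes were chosen by symbol, as MT1 followed by a capital letter, MT2A, MTF1, and the numbered SLC30A and SLC39A genes, without pseudogenes. The rule gave 34 of the 58735 rows: 9 metallothioneins, MTF1, 10 SLC30A genes and 14 SLC39A genes. The families and MTF1 were picked with the difference between these same groups known. The changes below therefore describe these genes, and their adjusted p-values, from the fit over all genes, are not independent evidence.

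Metallothioneins are small, cysteine-rich proteins that bind zinc, copper and cadmium in the cytosol. MTF1 is the zinc-sensing transcription factor that activates metallothionein genes and SLC30A1 when free zinc is high. It does so through short DNA elements called metal response elements. SLC30A proteins (ZnT) move zinc out of the cytosol, across the plasma membrane or into organelles, whereas SLC39A proteins (ZIP) move it into the cytosol. Skeletal muscle holds much of the body's zinc.

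MT2A and the MT1 genes lie in a cluster on chromosome 16, from the start of MT2A at 56608584 to the end of MT1X at 56684196 (GRCh38, GENCODE 44). Their coding sequences are similar enough that counts of one copy could include reads of another, so the 4 copies that were detected are shown here. Each is 183 bases long without the stop codon and spread over 3 exons. The MT2A sequence is printed in lower case, and capitals in the others mark bases that differ from MT2A at the same position.
MT2A: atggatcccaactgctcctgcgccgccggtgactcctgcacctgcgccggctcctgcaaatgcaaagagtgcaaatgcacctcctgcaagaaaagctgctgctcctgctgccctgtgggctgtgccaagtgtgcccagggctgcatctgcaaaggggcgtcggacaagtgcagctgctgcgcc
MT1E: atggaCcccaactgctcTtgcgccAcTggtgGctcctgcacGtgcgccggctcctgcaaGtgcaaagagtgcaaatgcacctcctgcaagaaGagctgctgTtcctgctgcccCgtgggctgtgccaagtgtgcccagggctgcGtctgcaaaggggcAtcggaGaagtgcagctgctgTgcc
MT1X: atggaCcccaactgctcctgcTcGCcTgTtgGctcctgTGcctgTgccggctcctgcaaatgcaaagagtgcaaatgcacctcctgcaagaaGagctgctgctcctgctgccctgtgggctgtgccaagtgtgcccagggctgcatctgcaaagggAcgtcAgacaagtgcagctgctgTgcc
MT1F: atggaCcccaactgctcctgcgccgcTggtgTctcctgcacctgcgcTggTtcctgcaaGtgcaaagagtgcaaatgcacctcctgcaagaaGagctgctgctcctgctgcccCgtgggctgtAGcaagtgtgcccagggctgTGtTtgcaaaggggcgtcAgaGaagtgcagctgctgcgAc
MT1E and MT1X each differed from MT2A at 14 positions and MT1F at 16, an identity of 92.3% for the first pair and 91.3% for the last. Among the MT1 copies, MT1F and MT1X were the least alike of these, with 21 differences. Reads were 75 bases long. Of the 75-base windows along each transcript, 0% of MT2A and MT1F windows and 0.79% of MT1E windows occurred in an annotated transcript of any other gene. MT1X was the exception, at 36.1%, shared with MT1G, with the pseudogene MT1XP1 and with a same-strand gene that overlaps its exons (ENSG00000259827), so its count is less certain. Exact matches only were searched, and the handling of reads with several matches is not given in the sources used here.

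MTF1 acts through metal response elements, so the promoters were searched for their letters. The core of the metal response element was searched as TGCACNC or TGCGCNC on both strands, with overlapping matches merged, in the 250 bases before the RefSeq transcription start (GRCh38.p14). RefSeq promoters were at hand for 26 of the 34 members. MT1E and MT1F, the metallothioneins with the largest changes, were not among the 26, so the search does not cover them. Of all 35116 RefSeq promoters at hand, 24.8% held at least 1 match. The promoters of 2 called metallothioneins and of the zinc exporter SLC30A1 are shown 5′ to 3′ on the strand of the gene, with matches in capitals. The windows are chr16:56608334-56608583 on the plus strand for MT2A, chr16:56682220-56682469 on the plus strand for MT1X and chr1:211579162-211579411 on the minus strand for SLC30A1.
MT2A: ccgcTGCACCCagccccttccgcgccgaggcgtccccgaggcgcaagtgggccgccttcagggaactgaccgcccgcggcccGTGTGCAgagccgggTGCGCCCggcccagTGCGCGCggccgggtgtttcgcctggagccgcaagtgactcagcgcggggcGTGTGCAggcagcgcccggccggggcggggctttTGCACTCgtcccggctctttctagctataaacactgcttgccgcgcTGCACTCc
MT1X: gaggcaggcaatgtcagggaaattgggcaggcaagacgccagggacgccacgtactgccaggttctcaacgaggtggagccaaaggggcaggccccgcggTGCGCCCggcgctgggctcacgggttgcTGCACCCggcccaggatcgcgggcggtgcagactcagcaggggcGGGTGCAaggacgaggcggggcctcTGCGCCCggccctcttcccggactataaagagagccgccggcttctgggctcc
SLC30A1: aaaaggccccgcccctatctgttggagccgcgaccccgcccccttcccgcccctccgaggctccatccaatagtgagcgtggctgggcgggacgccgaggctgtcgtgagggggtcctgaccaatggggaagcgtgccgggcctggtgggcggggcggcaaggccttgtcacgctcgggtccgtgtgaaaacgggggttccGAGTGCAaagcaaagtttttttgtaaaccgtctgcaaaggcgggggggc
MT2A held 7 matches, a number reached by 0.0228% of all promoters, and MT1X held 4, reached by 0.208%. SLC30A1 held 1 match in this window. Members that were called lower also held matches, with up to 2 for SLC30A3 and 1 for SLC39A6. MT1H held 8 matches and MT1B held 3, although both genes had 0 counts in every sample. Some members have several promoters, and 15 of the 35 promoters of the 26 members held at least 1 match. Counted by gene, 12 members held 0 in every promoter, MTF1, SLC30A7, SLC39A7 and SLC39A11 among them. A match is a description of the letters and was not tested as a binding site.

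Depth was similar between groups, with total counts from 28839898 to 34469323 per sample. Levels are in CPM, that is, counts adjusted for library depth with the trimmed mean of M-values. Fold changes are given on the log2 scale with their standard error (SE). Genes were tested with edgeR's quasi-likelihood test, and called where the Benjamini-Hochberg adjusted p over 15935 genes was under 0.05 and the log2 fold change was at least 0.25 in size. The targeted gene MAP3K7 stood at 77.9, 76.5 and 77.6 CPM in control and 30.5, 33.6 and 29.9 CPM in knockdown cultures (log2 fold change -1.30, adjusted p = 4.45e-14). Myogenic markers fitted the label, with DES at 340 and MYOD1 at 263 CPM in control cells, although MYF5 was at 0 and MYF6 at 0.0106 CPM. The 10 myogenic markers summed to 2071 to 2098 CPM in control and 2009 to 2122 CPM in knockdown cultures. These similar sums hide opposite moves, with 3 markers called higher, MYOD1, MYOG and MYMK, and 1 lower, CHRNA1. The largest change of the tested markers was that of MYMK, from a mean of 6.83 to 13.5 CPM (log2 fold change 0.98). MYOD1 reached a mean of 339 CPM in knockdown cells. CHRNA1 fell from a mean of 921 to 700 CPM (log2 fold change -0.40). The part of these markers in the results below was not tested. Immune, epithelial and endothelial markers summed to at most 1.27, 0.603 and 3.65 CPM in any sample, and TEK carried most of the last.

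Of the 34 members, 23 passed the filter on low counts and the same number passed when at least 10 counts were required in every sample. Of these 23, 7 were called higher in knockdown cells (30.4%), where 11.8% of all genes tested were called higher. A further 4 were called lower (17.4%), where 11.3% of all genes tested were called lower. Because the families were picked with this comparison known, nothing is read from those shares. The median log2 fold change was 0.035 over the 23 members and 0.018 over all genes tested. The families did not move as a block: all 4 tested metallothioneins and MTF1 rose, whereas of the 8 tested SLC30A genes 1 rose and 3 fell, and of the 10 tested SLC39A genes 1 rose and 1 fell. In bulk RNA, a change in the share of cells that express a gene and a change in RNA per cell cannot be told apart.

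**Figure D1:**
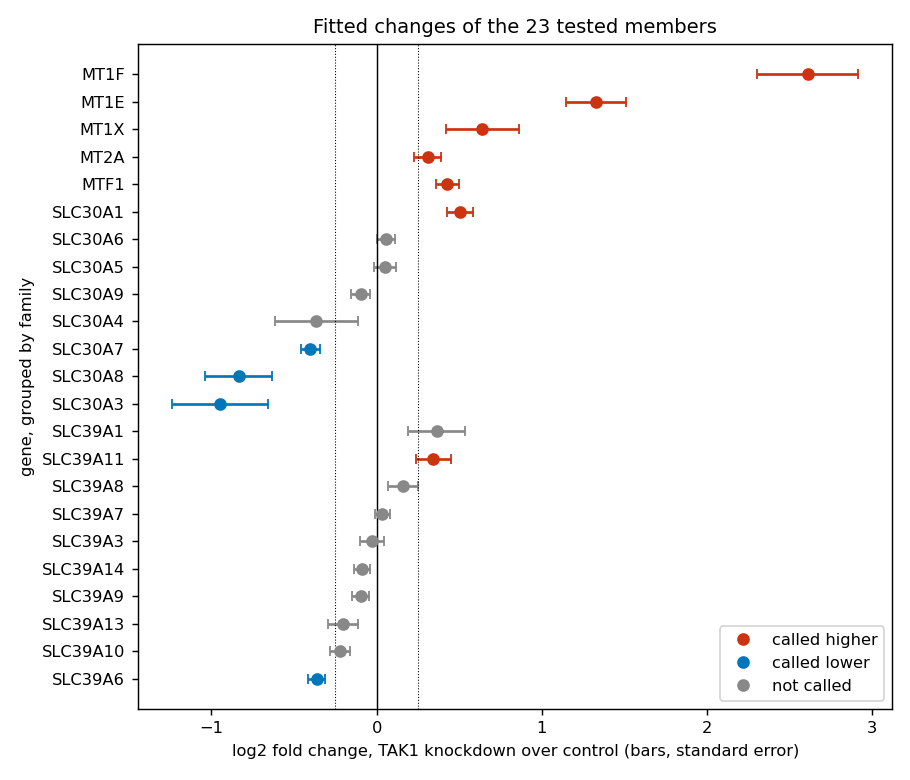
Log2 fold change of TAK1 knockdown over control for the 23 tested members, grouped by family, with standard errors as bars, dotted lines at 0.25 either side of 0 and color for the call. The metallothioneins lie to the right from 0.31 to 2.61, and the SLC30A genes spread from -0.95 to 0.51.

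MT1F showed the largest change of the 23 tested members. Its expression was 0.352, 0.413 and 0.389 CPM in control replicates 1, 2 and 3 and 2.09, 2.29 and 2.73 CPM in the knockdown replicates. Every knockdown culture lay above every control culture by a wide margin, but the control values rest on only 10, 13 and 12 counts, against 61, 81 and 90 in knockdown cells. The log2 fold change was 2.61 ± 0.31 (SE, adjusted p = 2.8e-07), the 7th highest among the 15935 genes tested. Exact permutation of 3 against 3 samples cannot give a two-sided p below 0.1, which holds for every gene here.

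MT1E also rose. Control cultures held it at 2.81, 1.84 and 3.05 CPM, and knockdown cultures at 7.56, 5.41 and 6.42 CPM. The groups did not overlap, and the second replicate was the lowest of both groups. The mean was 2.52-fold higher, and the log2 fold change was 1.33 ± 0.18 (SE, adjusted p = 2.54e-06).

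MT1X stood at 2.18, 1.94 and 1.85 CPM in control and 3.93, 2.24 and 3.18 CPM in knockdown cultures. Knockdown replicate 2 came close to the control cultures, and the groups were separated by a narrow gap. The log2 fold change was 0.64 ± 0.22 (SE, adjusted p = 0.0264). This was the least secure call among the metallothioneins. It was lost with DESeq2 (adjusted p = 0.0602) and with limma voom (adjusted p = 0.0565), and without control replicate 2 (adjusted p = 0.0737) or 3 (adjusted p = 0.0859). It was also lost without knockdown replicate 1 (adjusted p = 0.176) or 3 (adjusted p = 0.0712).

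MT2A is the most abundant metallothionein in these cells. It was measured at 16.6, 16.7 and 17.1 CPM in control and 20.04, 21.2 and 21.2 CPM in knockdown cultures. Replicates were tight in both groups and the groups did not overlap, so that this modest increase of 1.24-fold exceeded the spread (log2 fold change 0.31 ± 0.080 SE, adjusted p = 0.00374). The call was kept under every alternative that was run with the fold threshold of 0.25, with adjusted p from 0.00125 to 0.0221.

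Summed over the family, metallothionein counts stood at 21.98, 20.9 and 22.3 CPM in control and 33.6, 31.1 and 33.5 CPM in knockdown cultures. This sum was 1.51-fold higher in knockdown cells and does not depend on how reads were divided among these 9 genes. The MT1 genes alone summed to 4.94 ± 0.650 CPM in control and 11.9 ± 1.85 CPM in knockdown cells (SD, n = 3). The make-up of the family shifted as well. MT2A supplied 75.7%, 79.9% and 76.3% of metallothionein counts in the control cultures and 59.6%, 68.1% and 63.2% in the knockdown cultures. MT1F supplied 1.77% ± 0.190 in control and 7.24% ± 0.969 in knockdown cells, and MT1E 11.8% ± 2.58 and 19.7% ± 2.59 (SD, n = 3). The share of MT1X overlapped between groups, at 9.15% ± 0.830 and 9.46% ± 2.26.

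**Figure D2:**
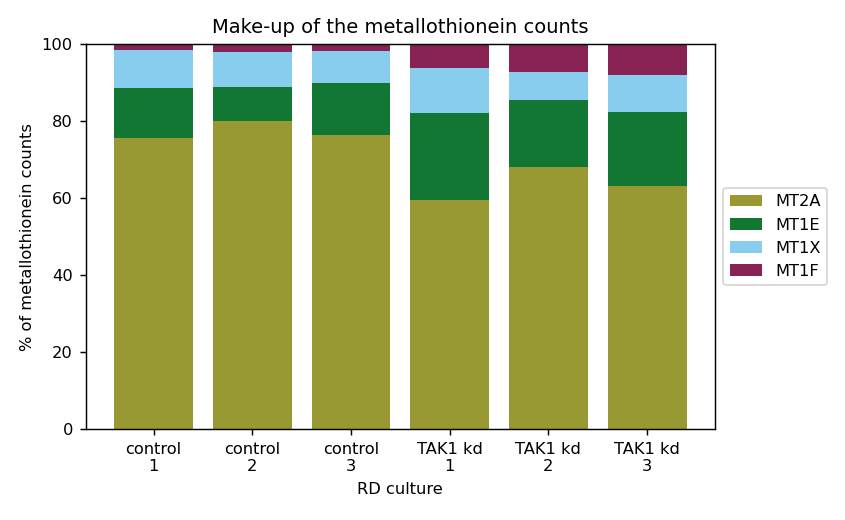
Share of all metallothionein counts held by MT2A, MT1E, MT1X and MT1F in each of the 6 RD cultures, as stacked bars in percent. MT2A holds 75.7% to 79.9% in control and 59.6% to 68.1% in TAK1 knockdown (kd) cultures, and the MT1F share is wider in all 3 knockdown bars.

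The remaining 5 metallothioneins, MT1A, MT1B, MT1G, MT1H and MT1M, had 0 counts in all 6 samples. At these depths a count of 0 allows up to 3 counts, or between 0.0870 and 0.104 CPM per sample, by counting error only. Undetected copies lie between detected ones in the cluster: MT1M (from 56632659) and MT1A (from 56638666) lie between MT1E (from 56625475) and MT1F (from 56657731). Of the metallothionein pseudogene rows, MT1XP1 had 16 counts over all samples and MT1P1 had 8, and the others were at 0. The brain-enriched metallothionein MT3 had at most 2 counts in a sample, and MT4, a metallothionein of stratified epithelium, had 0.

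MTF1, the transcription factor for these genes, lies on chromosome 1 from 37809574 to 37859592. Its mRNA stood at 34.2, 30.1 and 32.2 CPM in control and 41.9, 42.2 and 45.5 CPM in knockdown cultures. All knockdown values were above all control values. The log2 fold change was 0.43 ± 0.068 (SE, adjusted p = 2.22e-05), and the call was kept under every alternative run at that fold threshold. MTF1 activity is set by zinc binding, and the mRNA level does not measure it.

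**Figure D3:**
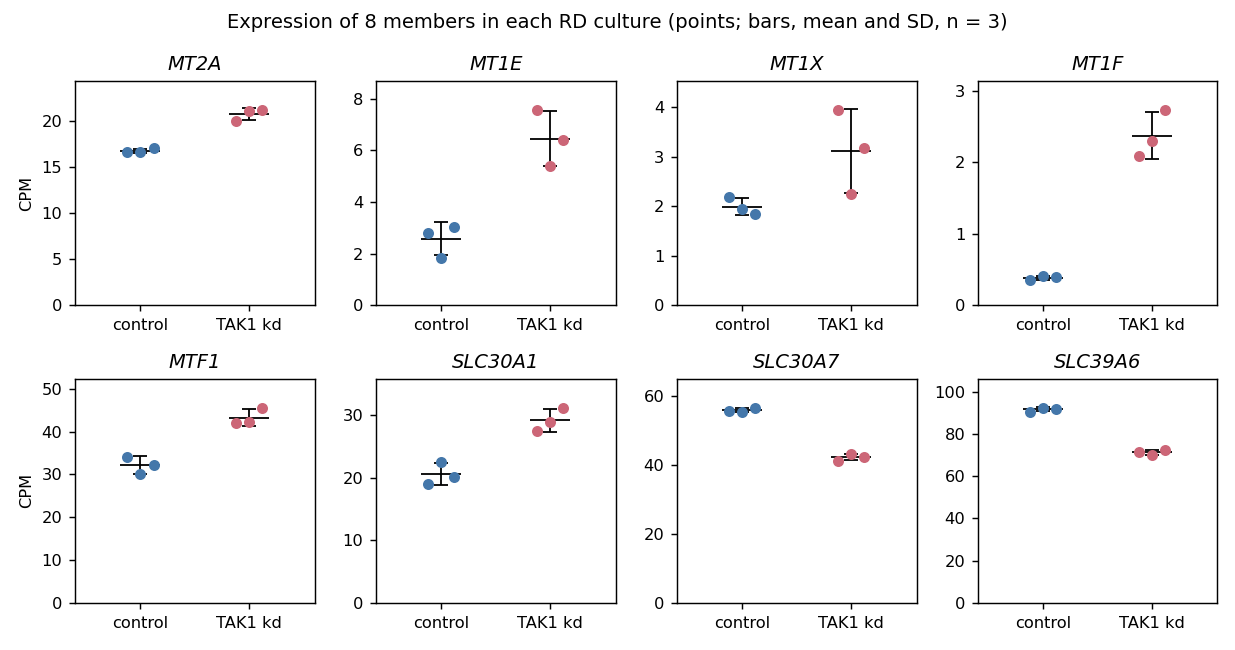
Expression in CPM of 8 called members in each control and TAK1 knockdown (TAK1 kd) culture, with points for cultures and bars for the mean and SD (n = 3), each axis starting at 0. MT2A, MT1E, MT1X, MT1F, MTF1 and SLC30A1 are higher in knockdown cultures, with a narrow gap for MT1X, and SLC30A7 and SLC39A6 are lower.

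Among the zinc exporters, SLC30A1 was the only called member that rose. It encodes ZnT1, the main exporter at the plasma membrane, and lies on chromosome 1 from 211571568 to 211579161. It reached 19.1, 22.5 and 20.2 CPM in control and 27.6, 28.9 and 31.2 CPM in knockdown cultures. The groups were well separated, with a log2 fold change of 0.51 ± 0.080 (SE, adjusted p = 2.04e-05).

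SLC30A7, whose product ZnT7 loads zinc into the Golgi, moved the other way. It stood at 55.6, 55.5 and 56.6 CPM in control and 41.3, 43.2 and 42.3 CPM in knockdown cultures. The spread within groups was small beside the gap between them, and the log2 fold change was -0.40 ± 0.059 (SE, adjusted p = 7.12e-06). Other transporters of the early secretory pathway were not called, among them ZnT5 and ZnT6, which form a heterodimer. SLC30A5 had a log2 fold change of 0.052 (adjusted p = 0.613) and SLC30A6 one of 0.056 (adjusted p = 0.475). SLC30A9, which encodes a mitochondrial zinc exporter, had one of -0.097 (adjusted p = 0.203).

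Both other SLC30A genes that fell are known for vesicles of specialized cells and were scarce here. SLC30A8 encodes the zinc transporter of insulin granules. It was measured at 2.95, 3.21 and 3.89 CPM in control and 1.78, 2.15 and 1.70 CPM in knockdown cultures, with a log2 fold change of -0.83 ± 0.20 (SE, adjusted p = 0.00226). SLC30A3 encodes the transporter of synaptic vesicles. It stood at 1.72, 1.62 and 1.65 CPM in control and 0.923, 0.963 and 0.697 CPM in knockdown cultures. Neither gene overlapped between groups, and SLC30A3 had a log2 fold change of -0.95 ± 0.29 (SE, adjusted p = 0.0129). Its exons overlap those of DNAJC5G on the opposite strand, and strand use in counting is not given in the sources used here. SLC30A4, another vesicular transporter, at 1.74 CPM in control and 1.35 CPM in knockdown cells, had a log2 fold change of -0.37 and did not pass (adjusted p = 0.29). SLC30A10, known as a manganese exporter, had 3 counts in all samples together, and SLC30A2 had 0.

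Among the zinc importers, SLC39A6 fell. It encodes ZIP6, a plasma membrane importer that pairs with ZIP10. Expression was 90.5, 92.3 and 92.0 CPM in control and 71.5, 70.0 and 72.4 CPM in knockdown cultures. Part of its exons is shared with a same-strand gene (ENSG00000288917), with 4.38% of its 75-base windows found in other genes. No values overlapped, and the log2 fold change was -0.36 ± 0.051 (SE, adjusted p = 4.22e-06). SLC39A10, which encodes the partner ZIP10, stood at 65.2, 71.4 and 72.5 CPM in control and 56.0, 61.0 and 62.0 CPM in knockdown cultures. The knockdown values were all lower and the adjusted p was 0.00503, but the log2 fold change of -0.22 lay under the fold threshold. It passed that threshold without control replicate 1 (-0.27) and without knockdown replicate 3 (-0.26).

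SLC39A11 encodes ZIP11, the sole human member of its ZIP subfamily. It was the importer that rose, from 9.67, 9.30 and 8.27 CPM in control to 11.97, 10.7 and 11.9 CPM in knockdown cultures. The groups did not overlap, with a log2 fold change of 0.34 ± 0.11 (SE, adjusted p = 0.0136). The call was lost without control replicate 3 (adjusted p = 0.0912) and without knockdown replicate 3 (adjusted p = 0.0505).

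The other 8 tested importers were not called. The most abundant member of all, SLC39A7, encodes ZIP7, which releases zinc from the endoplasmic reticulum. It ranged from 197 to 207 CPM in control and from 197 to 214 CPM in knockdown cultures, with a log2 fold change of 0.035 ± 0.047 (SE). Its exons overlap those of RXRB on the opposite strand. SLC39A14, which also carries iron and manganese, had a log2 fold change of -0.088 (adjusted p = 0.174), and SLC39A8, its close relative, one of 0.16 (adjusted p = 0.183). SLC39A9 of the Golgi was at -0.096 and SLC39A3 at -0.030, with adjusted p of 0.167 and 0.794. SLC39A13, linked to a connective tissue disorder, was at -0.20 with knockdown cultures at 19.2, 21.9 and 16.8 CPM, and it was called lower only without the second of these (-0.31, adjusted p = 0.0103). SLC39A1, a plasma membrane importer, was at 0.37 (adjusted p = 0.11), but 95.8% of its 75-base windows also occur in an annotated overlapping gene (ENSG00000285779), so its count of 86 to 134 reads per sample is uncertain. Of SLC39A3 windows, 25.6% are shared with another transcript. The untested importers were SLC39A2 with 2 counts in all samples together, SLC39A5 with 14, SLC39A4 with 27 and SLC39A12 with 0.

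Levels between genes were compared per length, as TPM, which is scaled by length as well as depth, over the union of each gene's exons, with no test. In control cells SLC39A7 led at 221 ± 5.12 TPM, followed by SLC39A6 at 108 ± 1.48, SLC39A14 at 87.5 ± 3.33 and MT2A at 80.0 ± 1.19 TPM (SD, n = 3). SLC39A9 and SLC30A6, at 53.4 ± 1.64 and 52.1 ± 0.590 TPM, lay within their spread of each other. MTF1 and SLC30A1 also did, at 17.5 ± 1.06 and 15.2 ± 1.35 TPM. MT1E stood at 10.6 ± 2.63 TPM, and MT1F was last on this length at 0.904 ± 0.0753 TPM, within its spread of SLC30A4. In knockdown cells MT2A was second at 103 ± 3.79 TPM, above SLC39A6 at 87.2 ± 0.772 TPM. MT1F moved from place 23 to place 19 with 5.76 ± 0.781 TPM, and MT1E from place 15 to place 10 with 27.6 ± 4.41 TPM. In knockdown cells MT1F lay within its spread of MT1X and SLC39A1, and MT1E within that of SLC39A3 and SLC30A5. These places depend on the length used. With the longest transcript, SLC39A14 stood at 91.9 TPM in control cells, above SLC39A6 at 79.3 TPM and MT2A at 57.4 TPM. With the canonical transcript, an alternative chosen after seeing the data, MT2A stood at 101 TPM in control cells, above SLC39A6 at 61.8 TPM. MT1F was then not last, at 2.18 TPM against 1.47 TPM for SLC30A8, 1.37 TPM for SLC30A3 and 0.589 TPM for SLC30A4.

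**Figure D4:**
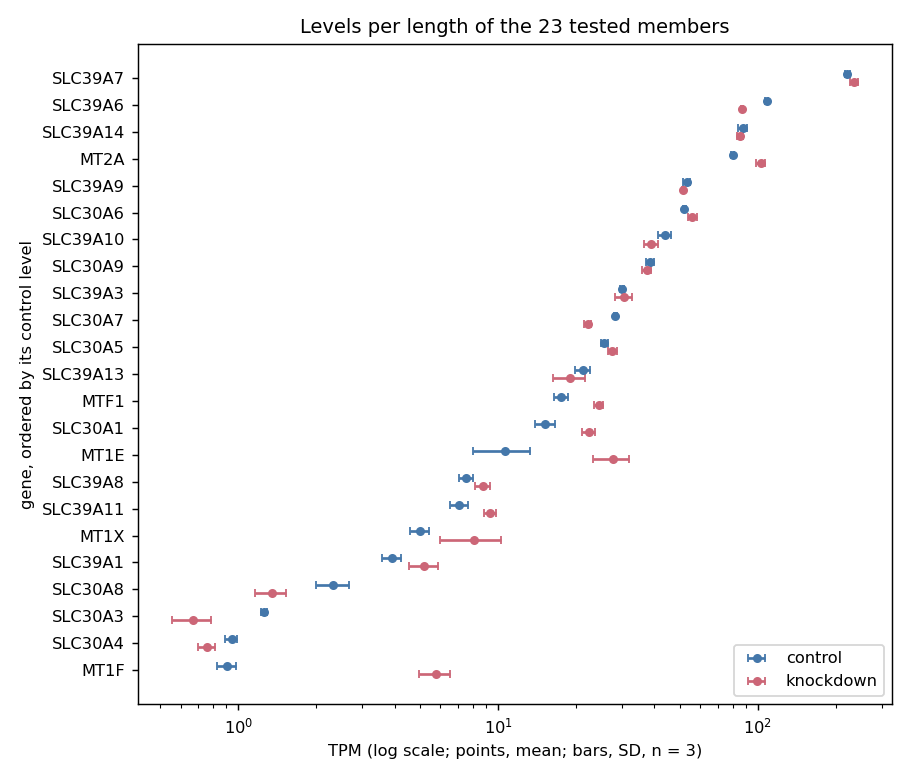
TPM over the union of exons of the 23 tested members on a log scale, ordered by the control level, with points for the mean and bars for the SD (n = 3) of control and TAK1 knockdown cultures. SLC39A7 leads in both groups, and MT1F, at 0.904 TPM in control cells and last on this length, stands at 5.76 TPM in knockdown cells.

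Other metal pathways, and pathways known to act on metallothionein genes, were followed with lists of genes. The counts below stand beside 11.8% of all genes tested called higher and 11.3% called lower, and nothing particular to a list is read from them. Of 4 tested genes for other zinc handling, 0 rose and 1 fell, TRPM7, a zinc- and magnesium-permeable channel (log2 fold change -0.46, adjusted p = 2.59e-05). Of 15 copper genes, 3 rose and 0 fell. The 3 were STEAP2, a metalloreductase (1.20), the copper exporter ATP7B (0.50) and the cytochrome oxidase assembly factor SCO1 (0.29). STEAP2 was scarce, with 8, 9 and 21 counts in control and 22, 39 and 34 in knockdown cultures (adjusted p = 0.0277). ATP7B passed narrowly (adjusted p = 0.0436). Of 17 iron genes, 1 rose, the metalloreductase STEAP3 (0.34), and 2 fell, the ferritin receptor NCOA4 (-0.50) and the ferrireductase CYBRD1 (-0.42).

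The same 11.8% higher and 11.3% lower over all genes stand beside the counts that follow. Among 15 tested genes of the glutathione and NRF2 pathways, 3 fell and 0 rose. GCLM, the regulatory subunit of the enzyme that limits glutathione synthesis, stood at 66.9 ± 2.61 CPM in control and 36.0 ± 1.00 CPM in knockdown cells (SD, n = 3), with a log2 difference of -0.89. TXN (thioredoxin) fell by 0.55 and NQO1, a quinone reductase, by 0.47 on the log2 scale. Of 9 tested genes for the glucocorticoid receptor and the response to it, 1 rose and 3 fell, with the largest change for ERRFI1 at -0.72. Of 13 hypoxia-responsive genes, 1 rose and 4 fell, with the largest change for NDRG1 at -1.12. The list medians were 0.020 for other zinc genes, -0.027 for copper, -0.044 for iron, -0.14 for glutathione and NRF2, -0.12 for glucocorticoid and -0.19 for hypoxia genes, beside 0.018 over all genes tested.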

How the data were processed

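For the 3 control and 3 knockdown samples the authors deposited raw counts of reads per gene, without normalization, after CASAVA base calling, read filtering and STAR alignment to GRCh38. The counter, annotation release, strand use and treatment of multiply mapped reads are not given in the sources used here. Members, gene lists and tests were chosen with earlier results of these data known. The default edgeR filter on low counts kept at least 99.9% of each sample's counts. Counts were compared with edgeR 4.0.16 in R 4.3.3 (trimmed mean of M-values, quasi-likelihood test, no replicate term, Benjamini-Hochberg adjustment over 15935 genes). The SE of each gene was taken as the size of its log2 fold change over the root of its F statistic. Alternatives were DESeq2 1.42.0, limma 3.58.1 (voom), 3 normalizations, 2 filters, fold thresholds of 0.5 and none, the replicate number as a block, other gene lengths, pseudogene rows added to the metallothionein sum, and every sample omitted in turn. The tests were checked on simulated data in which only well-counted genes were changed, all by the same size of fold. That check therefore does not cover changes of scarce genes or small changes. Values per sample are given for called members, MTF1, MAP3K7, MT2A, MT1X and MT1E (and, added after their values were seen, SLC39A10 and SLC39A13), log2 fold changes for other tested members, and total counts for untested ones. From each list of other genes, at most the 3 largest called changes were named. Of the 57167 distinct names, 36501 matched GENCODE 44 directly and 887 through RefSeq synonyms, which gave positions, lengths (union of exons) and shared windows (canonical transcript, for MT1E the one with the short reading frame). Replicates differed by more than sampling noise (chi-square per degree of freedom 2.80 to 7.94), so no samples were merged. Limits given for counts of 0 cover counting error only. All 6 columns were used.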

Additional observations from a re-analysis of the deposited data

How the results depend on the processing

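At a fold threshold of 0.5, 4 members were called higher and 2 lower, against 735 and 680 of all genes. With no fold threshold, 2734 genes were called lower. Every other alternative kept these counts within 1.5 times, with 5 to 7 members called higher and 4 to 5 called lower when each sample was left out, and DESeq2 called 6 higher and 4 lower. No call of a member changed direction. SLC39A3, which was not called, changed sign with library size alone (0.018) and when samples were left out in turn (-0.098 to 0.0081, the latter without knockdown replicate 2). Scaling by library size alone gave 2376 genes higher and 1404 lower, against 1879 and 1805, and moved the median of all genes to 0.066. The metallothionein sum stayed between 0.56 and 0.64 on the log2 scale over its 10 alternatives. Of the levels per length, the MT1X value in control cells ran from 3.55 TPM (longest transcript) to 11.8 TPM (canonical transcript, chosen after seeing the data). With a replicate block, 7 members were called higher and 4 lower, and 1942 and 1848 of all genes. Same-numbered samples shared little deviation from their group means (correlations 0.037, 0.036 and 0.016). Each knockdown replicate correlated best with its same-numbered control, but for replicate 3 the value with control replicate 1 was nearly equal (0.015). Control replicate 3 correlated best with knockdown replicate 2 (0.019). Correlations this small in so few samples cannot decide whether the numbers pair the samples. Depth limits MT1F in control cells and the genes at 0 counts.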
